A study of Mus musculus with 47 samples.

Results

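The genes described here encode the machinery that degrades mRNA. They are 49 genes of deadenylation (15), decapping (14, including the 7 LSm subunits), 5′-to-3′ exonucleases (2), the exosome (11) and nonsense-mediated decay (NMD; 7). They were chosen by name, as the 3′ UTR intervals whose RefSeq transcript belongs to a listed gene. The unit is a 3′ UTR set, the intervals of an mRNA transcript, with identical sets counted once. The 49 genes hold 54 of the 20737 sets and are 49 of the 18850 genes with a symbol. A gene with several sets is given by the set with the most covered T positions, and no set of the 49 overlapped the 3′ UTR of another gene.

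The data are SLAM-seq of wild-type P19 cells, a mouse embryonal carcinoma line, either undifferentiated (D0) or after 6 days of neuronal differentiation in retinoic acid (D6). In SLAM-seq, 4-thiouridine (4sU) taken up into new RNA is read as a T>C conversion, and the conversion rate is the share of covered T positions that are converted. The dose was 20 µM at D0 and 500 µM at D6, so that the state and the dose cannot be told apart in any labeled library. In the catabolic assay, cells were labeled for 15 h and then chased without 4sU for 0, 3, 6 or 9 h. In the anabolic assay, cells received 4sU for 0, 3, 6 or 9 h, and the libraries at 0 h received none. The sample labels give 1 and 3 h in place of 3 and 6 h. At the first of these points the anabolic conversion rate was 0.158% to 0.162% at D0 and 0.2135% to 0.241% at D6. At 0 h it was 0.144% to 0.2075% and 0.136% to 0.190%. Which hours are right was not tested. There were 47 libraries in 16 groups of 3, except that 6 h of the catabolic assay at D6 had 2. The series describes them as biological replicates.

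The libraries held 1489528 to 11677046 reads on 3′ UTRs, with a median of 7154291.5 at D0 and 3715703 at D6. The share of mapped reads that lay on 3′ UTRs also differed with the state, from 30.3% to 47.4% at D0 and from 15.6% to 33.5% at D6, and its part in the results below was not tested. The shallowest libraries were 4 of D6 with 1489528 to 1966286 reads. The 10 neuronal markers summed to a median of 676 CPM, the usual read unit scaled here to the reads on 3′ UTRs (503 to 792 CPM), at D0 and 9248 CPM (7466 to 10781) at D6. Of the 8 markers of undifferentiated cells, Sox2, which is also a neural progenitor gene, had a median of 780 CPM at D0 and 625 CPM at D6. The other 7 summed to 1223 CPM (1049 to 1777) at D0 and 12.8 CPM (5.72 to 75.3) at D6, with Zfp42 and Dppa5a at 0 in every library of both states. The summed markers of other cell types were low in both states. The 5 glial markers ranged from 4.36 to 44.3 CPM at D0 and from 0 to 135 CPM at D6, with Aqp4 at 0 in all libraries. The 4 mesoderm markers ranged from 7.01 to 33.2 CPM at D0 (median 16.3) and from 0 to 26 CPM at D6 (median 0.135), with Myod1 at 0 throughout. Of these, Actc1 was lower at D6 in the libraries without 4sU (log2 difference -9.33 ± 2.56). The 4 endoderm markers ranged from 0 to 8.21 CPM at D0 and from 0 to 29.8 CPM at D6, with Sox17 at 0 throughout. Their part in the results was not tested.

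Cytoplasmic mRNA decay usually begins with shortening of the poly(A) tail. The PAN2-PAN3 complex and the CCR4-NOT complex carry the deadenylases. In CCR4-NOT these are a Ccr4-type enzyme (Cnot6 or its paralogue Cnot6l) and a Caf1-type enzyme (Cnot7 or its paralogue Cnot8), held on the scaffold Cnot1. The mRNA is then either decapped and degraded from its 5′ end or degraded from its 3′ end by the exosome. In the first route the LSm ring binds the shortened tail, the helicase Ddx6 and Patl1 join it, Dcp2 removes the cap and Xrn1 digests the body. The nuclease Dis3 works on the exosome core. NMD uses the same enzymes on mRNAs with premature stop codons, which the helicase Upf1 selects. In bulk RNA, fewer cells of a type and less RNA per cell cannot be told apart.

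These are 3′ libraries, whose reads are meant to start near the 3′ end of the mRNA. The reads were summed over the whole annotated 3′ UTR, and where they lie within it was not examined. The last 30 bases of the 3′ UTR are shown for 7 genes that carry the results below, with the polyadenylation signal in capitals. They were copied from the mm10-based GENCODE M21 transcripts that end at the deposited interval, 5′ to 3′ on the transcript strand.
Cnot6l: taggcAATAAAtggccattttgcaaccgca
Cnot8: ttgtaaAATAAAgattgctttttaaccatt
Ddx6: ttatctcAATAAAagcccactggaacttca
Lsm3: tctttaaATTAAAtttgatgtttccttttt
Lsm4: tgaaaAATAAAagcaaacaccatagaaaga
Exosc2: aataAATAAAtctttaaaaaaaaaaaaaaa
Exosc9: taAATAAAatgtctccataaactactgtaa
In mm10 they lie at chr5:96070333-96070362 (Cnot6l, minus strand), chr11:58118565-58118594 (Cnot8, plus), chr9:44640702-44640731 (Ddx6, plus), chr6:91522591-91522620 (Lsm3, plus), chr8:70678723-70678752 (Lsm4, plus), chr2:31681291-31681320 (Exosc2, plus) and chr3:36565698-36565727 (Exosc9, plus). Lsm3 ends with the variant ATTAAA, and the annotated 3′ UTR of Exosc2 ends in a run of A.

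Of the 49 genes, 41 could be matched to such a sequence. The signal AATAAA, searched on the transcript strand within the last 50 bases, was present in 29 of 41 (70.7%) and in 62.6% of all sets with a sequence. ATTAAA without AATAAA was found in 8 (19.5%, against 14.6%). Neither was found in Cnot1, Lsm1, Lsm6 and Upf3a (9.76%, against 22.8%). A Pumilio motif (TGTANATA) was found in the last 300 bases of 2 of the 29 3′ UTRs of that length (6.9%, against 9.88%), and the AU-rich motif TATTTAT also in 2 of 29 (6.9%, against 10.3%). The 3′ UTRs ranged from 64 to 7240 bases with a median of 956, against 755 for all sets and 1131 for sets with at least 1000 covered T positions on average, a minimum that 44 of the 49 genes met. Exosome genes had short ones, with a median of 240 bases, as had LSm genes, with a median of 301.

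To ask which of these genes differ in mRNA level between the states, reads were first compared in the libraries that received no 4sU, 3 for each state. None of the 48 genes tested changed by edgeR's quasi-likelihood test at an adjusted p of 0.05, while 1357 of all 11055 sets did (12.3%), 783 higher (7.08%) and 574 lower (5.19%) at D6. At an unadjusted p of 0.05 the count was 6, against 24.7% of all sets. DESeq2 called 1, Cnot6l, against 19.3% of all sets. The median log2 difference, D6 minus D0, was -0.28 for these genes and -0.05 for all sets. It was 0.80 for deadenylation, -0.55 for decapping, -0.59 for the 2 exonucleases, -0.86 for the exosome and -0.07 for NMD. Of the deadenylation genes 11 of 15 had a higher value at D6, and of the exosome genes 9 of 11 a lower one (48.7% and 51.3% of all sets). The 3 libraries of each state did not overlap in CPM in 9 of the 48 genes (2 higher, 7 lower at D6), against 35.3% of all sets (17.7% and 17.6%). At this depth the test was limited: in simulated data it recovered 27.8% of changes of 2 on the log2 scale and 67.4% of changes of 4.

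Among the deadenylases, Cnot6l stood at 61.4, 106 and 75.0 CPM at D0 and at 182, 180 and 177 CPM at D6, so that the states did not overlap. The log2 difference was 1.16 ± 0.36 (SE, edgeR adjusted p = 0.0589), with an adjusted p of 0.0253 by DESeq2. Without replicate 56 of D0 it was 1.51 and passed the test (edgeR adjusted p = 0.0104). Its paralogue Cnot6 gave 247, 166 and 245 CPM at D0 and 327, 285 and 362 CPM at D6, again without overlap, with a log2 difference of 0.61 ± 0.26 (edgeR adjusted p = 0.17). Cnot7 gave 154, 58.6 and 146 CPM at D0 against 252, 119 and 264 CPM at D6, and Cnot8 gave 50.3, 11.1 and 58.7 CPM against 111, 43.6 and 110 CPM. In both genes the states overlapped through the lowest D6 library. Pan2, the nuclease of its complex, ranged from 0.182 to 18.7 CPM at D0 and from 5.27 to 37.5 CPM at D6. Parn, a further poly(A)-specific ribonuclease, ranged from 10.0 to 26 CPM and from 18.6 to 61.9 CPM.

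Of the decapping genes, the decapping enzyme Dcp2 was read at 27.7, 37.1 and 40.7 CPM at D0 and at 15.3, 0 and 20.9 CPM at D6. Its log2 difference of -1.53 had an SE of 1.28. The helicase Ddx6 overlapped between the states, at 244, 321 and 357 CPM at D0 and 372, 338 and 425 CPM at D6. All 6 LSm subunits tested had a lower value at D6, with a median of -0.60, and for 3 of them the unadjusted p was under 0.05 (11.9% of all sets were lower at that threshold). Lsm3 gave 286, 210 and 372 CPM at D0 and 202, 167 and 131 CPM at D6 (-0.74 ± 0.30, edgeR adjusted p = 0.15). Lsm2 gave 197, 146 and 149 CPM against 92.5, 107 and 95.4 CPM (-0.69 ± 0.31, edgeR adjusted p = 0.2), and Lsm7 116, 155 and 190 CPM against 99.9, 93.5 and 57.9 CPM (-0.84 ± 0.37, edgeR adjusted p = 0.189). These 3 genes are among the 7 whose D6 libraries all lay below the D0 libraries. Lsm5 had too few reads to be tested.

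The exonuclease Xrn1 overlapped between the states, at 24.9 to 78.1 CPM and 26.6 to 58.9 CPM, and so did the nuclear Xrn2, at 19.5 to 77.7 CPM and 3.33 to 60.6 CPM. The exosome nuclease Dis3 ranged from 19.1 to 31.6 CPM at D0 and from 1.97 to 16.1 CPM at D6. Its relative Dis3l ranged from 0 to 14.6 CPM and from 3.07 to 53.3 CPM, and the nuclear exosome nuclease Exosc10 from 58.2 to 114 CPM and from 71.2 to 133 CPM. The core subunit Exosc5 had the lowest log2 difference of the 48 genes tested, -1.53 ± 0.66 (edgeR adjusted p = 0.178). In NMD, the helicase Upf1 gave 288, 470 and 175 CPM at D0 and 164, 213 and 117 CPM at D6, and the endonuclease Smg6 gave 77.6, 35.6 and 92.1 CPM against 80.0, 112 and 119 CPM. Both overlapped between the states.

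The same comparison was made after 15 h of 4sU, in other libraries but with doses that differ between the states. Here 5 of the 47 genes tested changed by edgeR (10 at an unadjusted p of 0.05, and 6 by DESeq2), against 14% of all 10772 sets (7.23% higher, 6.73% lower; 26.4% at the unadjusted p and 20.3% by DESeq2). The states did not overlap in 18 of the 47 genes, 7 higher and 11 lower at D6, against 36.3% of all sets (19.6% and 16.7%). Cnot6l rose, from 72, 50 and 51 CPM at D0 to 221, 235 and 149 CPM at D6 (log2 difference 1.80 ± 0.34, edgeR adjusted p = 0.00527). Cnot7 also rose, from 121, 50.4 and 101 CPM to 343, 222.8 and 305 CPM (1.69 ± 0.35, edgeR adjusted p = 0.00909). Both are among the 7.

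The 3 genes that fell were a pair of LSm subunits and an exosome subunit. Lsm6 fell from 769, 1111 and 910 CPM to 416, 462 and 419 CPM (-1.12 ± 0.23, edgeR adjusted p = 0.00778). Lsm7 fell from 208, 197 and 229 CPM to 130, 79.5 and 58 CPM (-1.24 ± 0.36, edgeR adjusted p = 0.0412), and the exosome subunit Exosc1 from 174, 222 and 213 CPM to 113, 78.0 and 109 CPM (-1.03 ± 0.31, edgeR adjusted p = 0.0478). These 3 are among the 11 without overlap. Leaving out each library in turn, Cnot6l and Lsm6 passed the test each time. Cnot7 missed it without replicate 07 of D6 (edgeR adjusted p = 0.0564), Lsm7 in 5 of the 6 cases (largest 0.129) and Exosc1 in all 6 (largest 0.154).

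Libraries with 15 h of 4sU and without it were also compared within each state. The labeled ones were all from the catabolic and the others all from the anabolic assay, so that 4sU and assay cannot be told apart. The share of mapped reads on 3′ UTRs was 23.03% to 25.99% with 4sU and 31.54% to 33.02% without at D6, and 30.3% to 34.7% and 31.9% to 41.4% at D0. None of the 49 genes changed at D0 by edgeR (1 at an unadjusted p of 0.05, against 1.99% of sets, and 0 by DESeq2), where 0.0% of 10653 sets were called. None of 47 changed at D6 (3 at an unadjusted p of 0.05, against 5.73%, and 0 by DESeq2), where 1 of 10730 sets was called (0.00932%). For Cnot6l the log2 difference, 15 h minus none, was -0.50 ± 0.43 at D0 and 0.10 ± 0.27 at D6. For Lsm6 it was 0.22 ± 0.30 at D0 and -0.49 ± 0.19 at D6, where its libraries did not overlap (edgeR adjusted p = 0.709, unadjusted 0.0202). Its difference between the states was -0.46 ± 0.29 without 4sU (edgeR adjusted p = 0.389), against -1.12 after 15 h of 4sU. DESeq2 called 2 of all sets at D0 (0.0189%) and 177 at D6 (1.69%).

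All 47 libraries were then used as the mean of the 8 differences between D6 and D0 at the same assay and time point. These include the libraries of the comparisons above, and the genes named from this fit were chosen after their values were seen. Of the 49 genes, 27 changed by edgeR, 4 higher and 23 lower at D6, against 44.3% of all 14534 sets (15.7% higher, 28.6% lower). The median log2 difference was -0.56 for these genes and -0.42 for all sets. Values near -0.42 thus lie in the middle of all sets in this fit. For sets with at least 5000 covered T positions the median was -0.23. Over all sets it was -0.19 without the 4 shallow D6 libraries, -0.20 in the anabolic libraries and -0.47 in the catabolic libraries. The genes called higher were the 4 catalytic subunits of CCR4-NOT: Cnot6l (1.47 ± 0.15, edgeR adjusted p = 3.97e-13), Cnot7 (0.99 ± 0.17), Cnot8 (0.75 ± 0.23) and Cnot6 (0.61 ± 0.11).

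**Figure D1:**
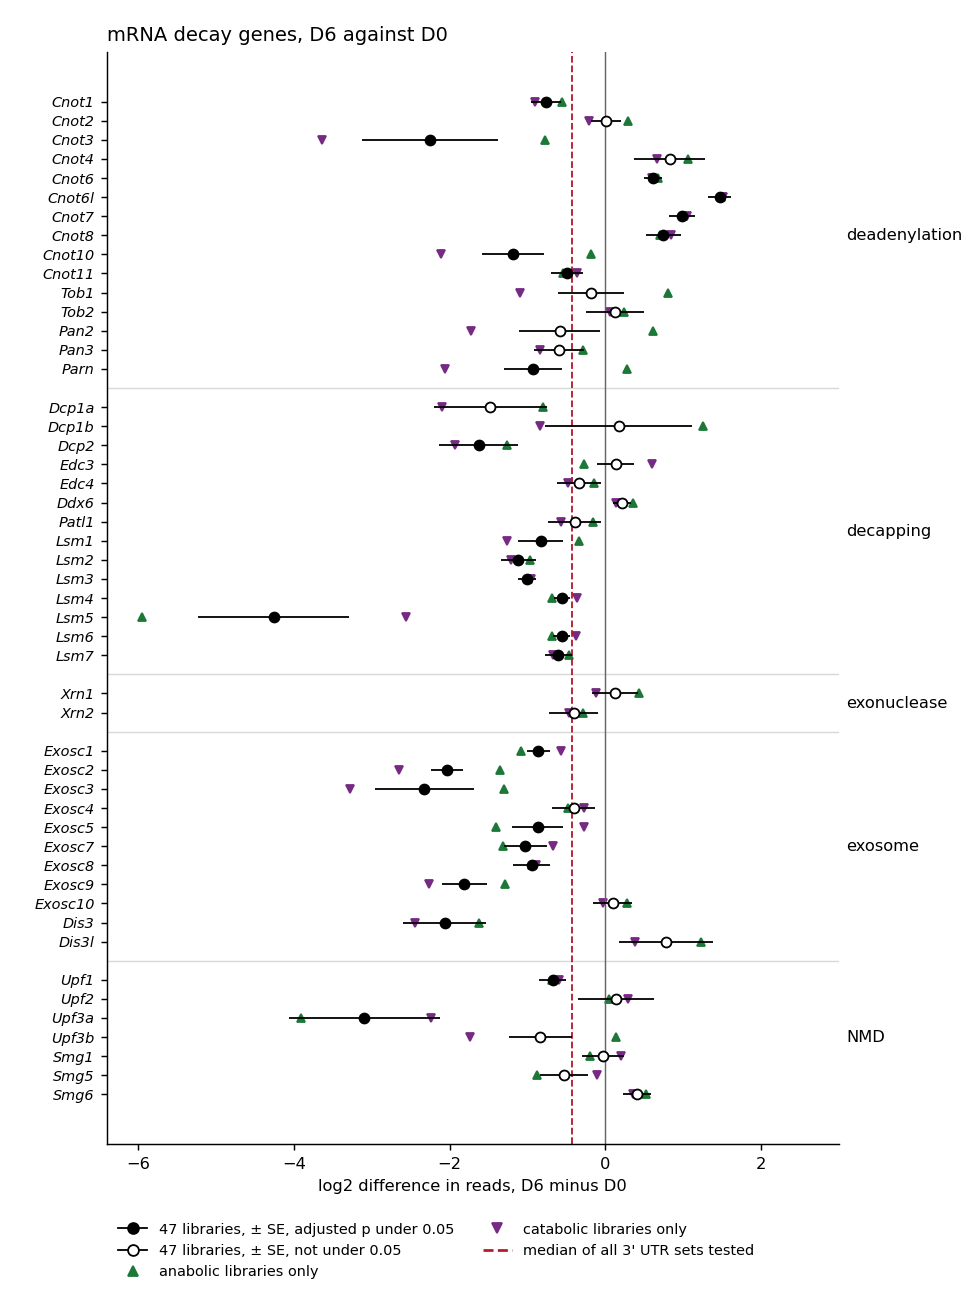
Log2 difference in reads, D6 minus D0, for each of the 49 genes by role (x axis; genes on the y axis). Points with bars are the fit over all 47 libraries ± SE, triangles the fits within the anabolic and the catabolic libraries, and the dashed line the median of all sets (-0.42). The 4 catalytic CCR4-NOT genes lie to the right of zero, from 0.61 to 1.47, and the exosome genes except Exosc10 and Dis3l to the left.

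The other CCR4-NOT genes were not called higher in this fit. The scaffold Cnot1 fell by 0.76 on the log2 scale (SE 0.19), Cnot10 by 1.18 (SE 0.40), Cnot11 by 0.48 (SE 0.21) and Cnot3 by 2.25 (SE 0.87), while Cnot2 stood at 0.01 ± 0.19 and the ubiquitin ligase Cnot4 at 0.83 ± 0.46. Without the 4 shallow D6 libraries Cnot4 was called higher (1.02 ± 0.41, edgeR adjusted p = 0.0397). Cnot3 had a median of 2.86 CPM at D0, and its value rests on few reads. Parn fell by 0.92 (SE 0.37), although it stood at 0.28 in the anabolic libraries alone and at -0.11 without 6 h of the catabolic assay, so that its direction differed between the assays. The deadenylase partners Tob1 (-0.18 ± 0.42) and Tob2 (0.12 ± 0.37), and Pan2 (-0.58 ± 0.52) and Pan3 (-0.59 ± 0.32), did not pass the test.

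All 7 LSm subunits were called lower. Lsm3 fell by 1.00 (SE 0.12, edgeR adjusted p = 7.57e-11), and Lsm2 by 1.12 (SE 0.23). Lsm1, the cytoplasmic subunit, fell by 0.83 (SE 0.28), but stood at -0.21 without 6 h of the catabolic assay, where the call was lost. Lsm4 (-0.55 ± 0.11), Lsm6 (-0.56 ± 0.11) and Lsm7 (-0.60 ± 0.18) lay close to the median of all sets (-0.42). They lay further below the median of sets with at least 5000 covered T positions (-0.23). Lsm5 fell by 4.26 (SE 0.97) from a median of 3.24 CPM at D0 to a median of 0 CPM at D6. Dcp2 fell by 1.63 (SE 0.51). Ddx6 (0.22 ± 0.12, edgeR adjusted p = 0.122), the enhancers of decapping Edc3 (0.13 ± 0.23) and Edc4 (-0.33 ± 0.28), Patl1 (-0.39 ± 0.34), Dcp1a (-1.48 ± 0.73) and Dcp1b (0.17 ± 0.95) did not pass.

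In the exosome, 8 of the 11 genes were called lower. Exosc2, an RNA-binding cap subunit, fell by 2.03 (SE 0.21, edgeR adjusted p = 6.32e-13) and the core subunit Exosc9 by 1.81 (SE 0.29). Exosc3 fell by 2.32 (SE 0.64), Dis3 by 2.06 (SE 0.54), Exosc7 by 1.02 (SE 0.27), Exosc8 by 0.94 (SE 0.24), Exosc5 by 0.87 (SE 0.33) and Exosc1 by 0.86 (SE 0.15). Exosc4 (-0.41 ± 0.28), Exosc10 (0.10 ± 0.25) and Dis3l (0.78 ± 0.61) did not pass. Neither did Xrn1 (0.13 ± 0.29) or Xrn2 (-0.40 ± 0.31). In NMD, Upf1 fell by 0.67 (SE 0.17) and Upf3a, with a median of 3.58 CPM at D0 and 0 CPM at D6, by 3.09 (SE 0.97). Upf2 (0.14 ± 0.49), Upf3b (-0.83 ± 0.40), the kinase Smg1 (-0.03 ± 0.27), Smg5 (-0.52 ± 0.31) and Smg6 (0.41 ± 0.18, edgeR adjusted p = 0.055) did not pass.

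The fit was repeated within each assay. In the anabolic libraries 16 genes were called, 3 higher and 13 lower, against 37.6% of all sets (16.8% higher, 20.8% lower). In the catabolic libraries 22 were called, 4 higher and 18 lower, against 37.9% (13.5% higher, 24.5% lower). The 11 genes called the same way in both were Cnot6 (0.68 and 0.60 on the log2 scale), Cnot6l (1.49 and 1.52), Cnot7 (1.00 and 1.05), Lsm2, Lsm3 (-0.99 and -0.95), Lsm4, Lsm6, Exosc1, Exosc2 (-1.35 and -2.65), Exosc8 and Exosc9 (-1.29 and -2.27). This count of 11 was not set against a share of all sets. It thus cannot show whether these genes were called in both assays more often than other sets. The sign was the same in both assays for 39 of 49 genes, and for 79.8% of the 13054 sets tested in both. Among all sets called, 35.4% were higher at D6 in the fit over all libraries, 44.7% in the anabolic libraries, 35.5% in the catabolic libraries, 44.6% without the 4 shallow D6 libraries, 39.9% with DESeq2 size factors and 47% among sets with at least 5000 covered T positions. Of the genes described here, 24 were called without the shallow libraries (7 higher, 17 lower), against 44.5% of all sets (19.8% and 24.7%). With DESeq2 size factors 26 were called (6 and 20), against 43.5% (17.4% and 26.2%), and at the higher coverage 19 of 32 (6 and 13), against 62.7% (29.5% and 33.2%). Ddx6 and Smg6 were called higher in each of these 3 fits. Leaving out both groups of each assay and time point in turn gave 22 to 26 calls. Of all sets, 6028 to 6387 were called in these fits, against 6440 with all libraries. Cnot3, Cnot10, Cnot11, Parn, Dcp2, Lsm1, Exosc3, Exosc5 and Upf3a lost the call at least once. Of the 27, Cnot3 (0.69 ± 2.47) and Parn (1.30 ± 0.82) had the other sign without 4sU, and Lsm1 (0.96 ± 0.68) and Upf3a (1.44 ± 2.50) after 15 h of 4sU, none of them called there.

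Across libraries, no gene of the 49 had CPM ranges that stayed apart between the states, against 3.22% of all sets with a read. Cnot6l came closest among the genes that rose. It ranged from 45.3 to 106 CPM at D0 (median 61.4, n = 24) and from 95.7 to 254 CPM at D6 (median 160, n = 23), with 22 of the 23 D6 libraries above the highest D0 library. Cnot7 ranged from 50.4 to 160 CPM (median 128) and from 18.4 to 406 CPM (median 236), with 18 D6 libraries above the D0 range and 1 below it. Cnot6 ranged from 166 to 320 CPM (median 229) and from 187 to 586 CPM (median 330), with 14 above. Cnot8 ranged from 11.1 to 86.3 CPM (median 53.6) and from 7.31 to 228 CPM (median 86.3), with 12 above.

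In the other direction, Lsm3 ranged from 205 to 484 CPM at D0 (median 371) and from 75.1 to 255 CPM at D6 (median 176), with 18 D6 libraries below the lowest D0 library. Exosc1 ranged from 123 to 244 CPM (median 156) and from 33.2 to 206 CPM (median 86.8), with 19 below. Exosc2 ranged from 53.6 to 193 CPM (median 131) and from 1.02 to 80.5 CPM (median 44.1), with 15 below. Exosc9 ranged from 50.9 to 118 CPM (median 88.6) and from 0 to 72.4 CPM (median 37.3), with 18 below. For Lsm3, Exosc2 and Exosc9, no D6 library reached the D0 median. Lsm4 overlapped more, at 323 to 601 CPM (median 435) and 70.7 to 522 CPM (median 273).

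**Figure D2:**
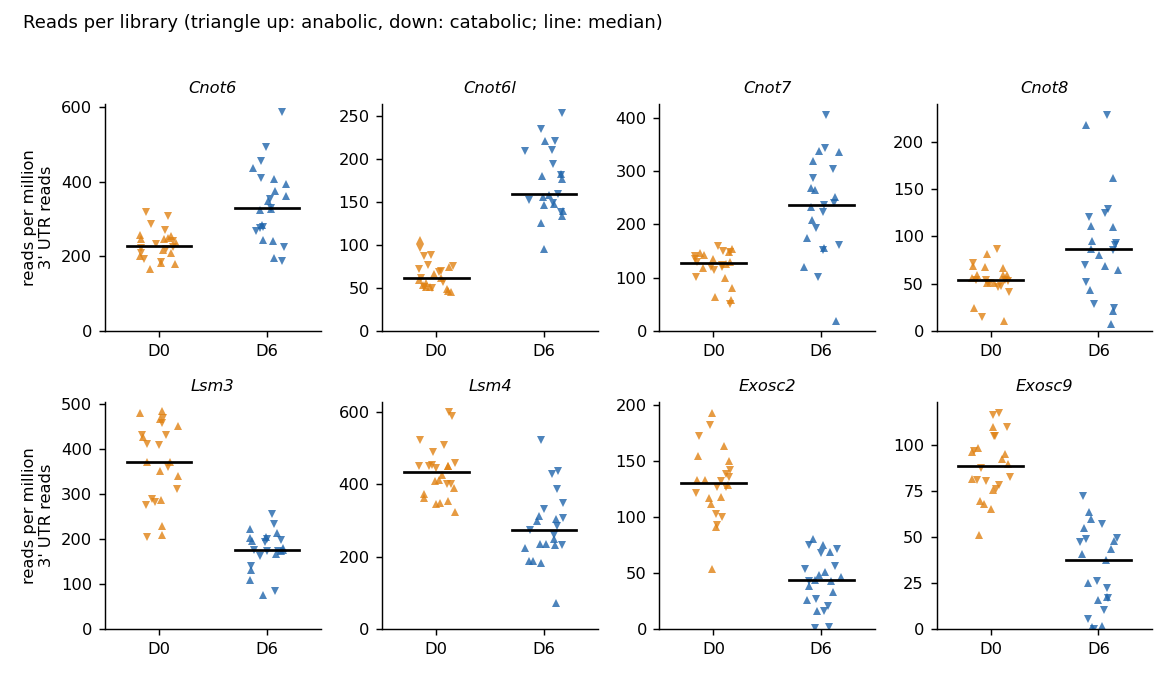
Reads on 3′ UTRs as CPM (y axis) in each of the 47 libraries for 8 genes in both states (x axis). Triangles are libraries, pointing up in the anabolic and down in the catabolic assay, and lines are medians. D6 libraries of Cnot6l lie between 95.7 and 254 CPM, all above the D0 median of 61.4, and those of Lsm3, Exosc2 and Exosc9 all lie below the D0 medians of 371, 131 and 88.6.

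Pairs of paralogues were compared as a log2 ratio of their reads within each library, which needs no scaling between libraries. For the 7 pairs, the mean D6 minus D0 difference over the 8 combinations of assay and time point was tested by a two-sided permutation test of 100000 resamples, with Benjamini-Hochberg adjustment over the 7. The ratio of Cnot6 to Cnot6l fell by 0.88, from a mean of 1.84 at D0 to 0.95 at D6 (permutation p = 1e-05, the smallest these resamples can give; adjusted 7e-05). It was lower at D6 in 8 of 8 combinations, by 0.54 to 1.40, and ranged from 0.65 to 2.59 at D0 and from -0.17 to 1.86 at D6. Reads of both genes rose in the fit over all libraries, and those of Cnot6l by more. The ratio of Dis3 to Dis3l fell by 3.36 (permutation p = 0.00227, adjusted 0.00794, lower in 8 of 8), on a median of 107 and 52 reads per library. It ranged from 0.60 to 8.45 at D0 and from -8.15 to 7.75 at D6. Dis3 had 0 reads in 3 libraries of D6, and Dis3l in 2 of D0 and 4 of D6. In those libraries the ratio depends on the reads added to each count and on depth. Leaving out each library in turn, both pairs passed each time.

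The Caf1-type pair was not called. For Cnot7 to Cnot8 the difference was 0.22 (adjusted permutation p = 0.622; higher in 4 of 8 combinations), and without replicate 45 at 6 h of the anabolic assay at D6 it was 0.44 (adjusted permutation p = 0.0436). For Tob1 to Tob2 it was 0.26 (adjusted permutation p = 0.749), for Dcp1a to Dcp1b -1.98 (0.121), for Upf3a to Upf3b -0.50 (0.622) and for Xrn1 to Xrn2 0.51 (0.125). With 5 reads added in place of 0.5, Dcp1a to Dcp1b passed (-1.59; adjusted permutation p = 0.0153) and Upf3a to Upf3b turned to 0.42. In the libraries without 4sU alone, where 3 against 3 cannot give a p under 0.1, Cnot6 to Cnot6l differed by -0.61 (exact permutation p = 0.4).

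**Figure D3:**
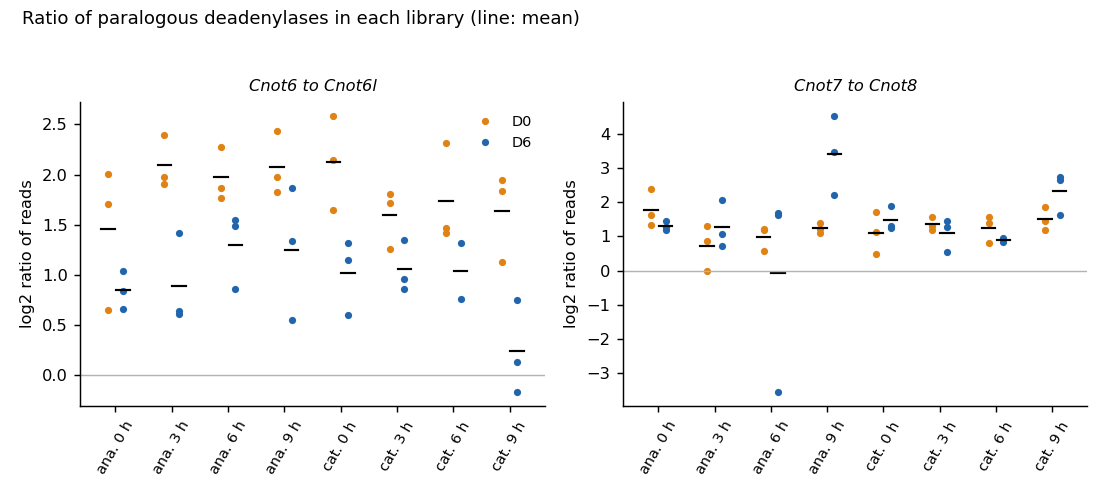
Log2 ratio of reads (y axis) of Cnot6 to Cnot6l and of Cnot7 to Cnot8 in each library, by assay and time point (x axis) and state. Points are libraries and lines means. The ratio of Cnot6 to Cnot6l lies lower at D6 in all 8 combinations, with a mean of 0.95 against 1.84, whereas that of Cnot7 to Cnot8 is higher in 4 and lower in 4.

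The turnover of these mRNAs was read from the loss of conversions during the chase. Of the 49 genes, 44 had at least 1000 covered T positions per library on average, and Cnot3, Dcp1b, Lsm5, Dis3l and Upf3a were below. Over all sets, the conversion rate at D0 was 1.42% after 15 h of 4sU, then 1.41%, 1.04% and 0.415% at 3, 6 and 9 h of chase. At D6 it was 4.63%, then 4.67%, 2.27% and 0.883%. In the libraries without 4sU it was 0.144% to 0.2075% at D0 and 0.136% to 0.190% at D6. This background was not subtracted in the edgeR slopes or in the shares of label kept. Loss was tested with edgeR as the slope of the log2 conversion rate over the hours relative to the summed rate of all sets in the same libraries, in which abundant sets weigh most. A value above 0 is slower loss than this sum, and the median set lay at -0.08 per h in both states.

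At D0, 5 of the 44 genes differed from this sum (11 at an unadjusted p of 0.05, against 22.1% of all sets), against 7.46% of 9825 sets (3.27% slower, 4.19% faster), and the median slope of the 44 was -0.08 per h. All but 1 of the 5 act in decapping, and 3 are LSm subunits, a grouping that was not tested. The other LSm subunits tested had slopes below 0 and were not called. These were Lsm1 (-0.12 ± 0.13 per h), Lsm2 (-0.16 ± 0.08) and Lsm3 (-0.07 ± 0.03). Label left Lsm4 (0.13 ± 0.04 per h, edgeR adjusted p = 0.024), Lsm7 (0.14 ± 0.04, adjusted p = 0.0285) and Lsm6 (0.07 ± 0.02, adjusted p = 0.0413) more slowly. It left Ddx6 (-0.16 ± 0.04 per h, edgeR adjusted p = 0.00496) and Tob2 (-0.46 ± 0.14, adjusted p = 0.0369) faster. Tob2 joins CCR4-NOT to its target mRNAs.

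The conversion rate of Lsm4 at D0 was 1.02%, 0.87% and 0.626% after 15 h of 4sU, and 0.485%, 0.341% and 0.865% after 9 h of chase, so that the first and last time points overlapped. Lsm7 gave 1.21%, 0.977% and 1.34%, and then 0.683%, 1.00% and 0.732%, with a single library overlapping. Lsm6 gave 1.53%, 1.32% and 1.27%, and then 0.484%, 0.655% and 0.691%, without overlap. Ddx6 gave 1.88%, 1.25% and 1.48%, and then 0.151%, 0.132% and 0.173%. Tob2 gave 6.53%, 5.26% and 1.71%, and then 0.0421%, 0.0196% and 0.147%. For both, every library at 9 h lay below those at the start, as in 47.7% of 8666 sets. The libraries of D0 without 4sU read 0.144% to 0.2075% over all sets. At 9 h both genes were thus near or below the background, which the edgeR slopes do not subtract.

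Only Ddx6 of the 5 passed in all 12 fits that left out 1 library, with an edgeR adjusted p of 0.0244 at most. Lsm4 missed without replicate 27 (15 h of 4sU, edgeR adjusted p = 0.0638) and without replicate 36 (9 h, adjusted p = 0.214), Lsm7 in 4 of the 12 fits, Lsm6 in 7 and Tob2 in 8. With limma on the background-subtracted rate, none of the 44 was called, and the sign of Tob2 turned. Of all sets, limma called 23, where edgeR had called 733. In simulated data, the edgeR test recovered 18% of differences of 0.2 per h and 53% of those of 0.4 per h.

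**Figure D4:**
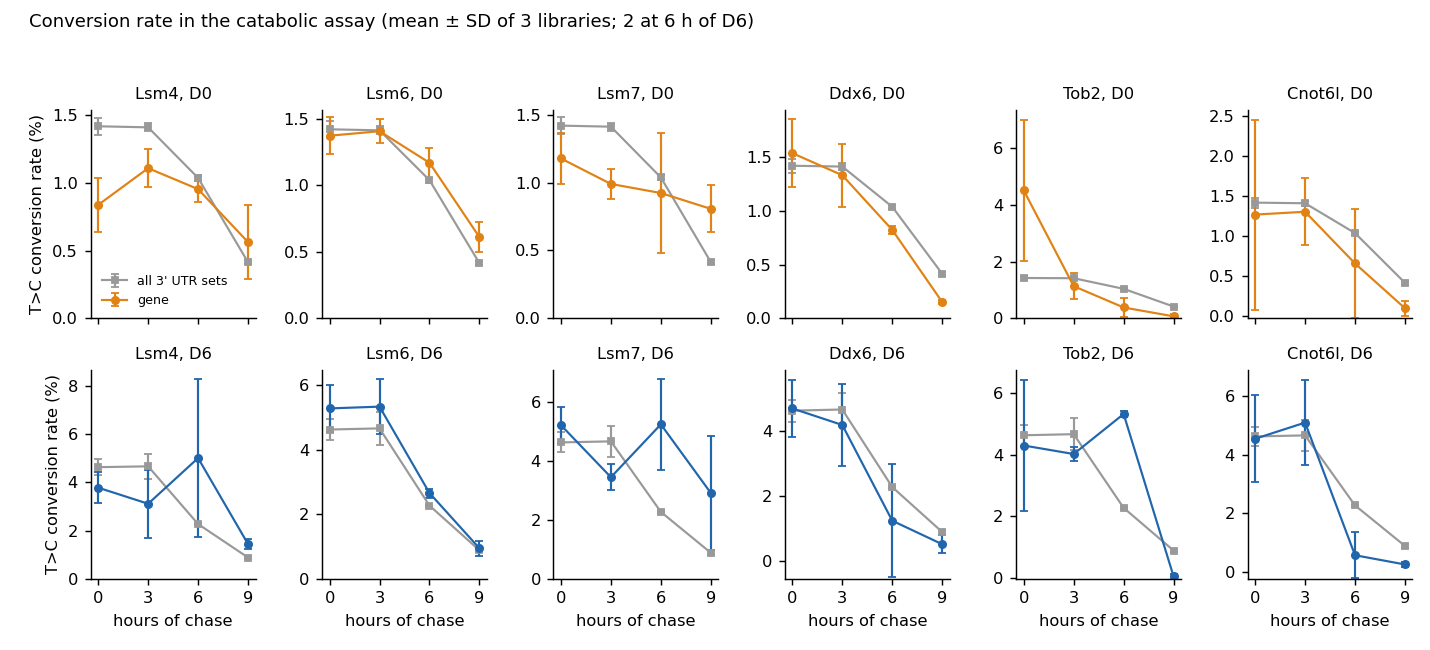
Conversion rate (percent of covered T positions, y axis) against hours of chase (x axis) for 6 genes in both states, with all sets in grey. Points and bars are the mean ± SD of 3 libraries, or 2 at 6 h of D6 and for Tob2 also at 3 h of D6, where 1 library covered no T. At 9 h of D0 the means of Lsm4, Lsm6 and Lsm7 are 0.563%, 0.610% and 0.807%, above the 0.415% of all sets, and those of Ddx6 and Tob2 are 0.152% and 0.0695%.

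At D6 none of the 44 genes differed from the sum by edgeR (5 at an unadjusted p of 0.05, against 13.1% of all sets), where 66 of 9767 sets did (0.676%; 0.635% slower, 0.041% faster). The slopes of Lsm7 (0.20 ± 0.07 per h, edgeR adjusted p = 0.205) and Lsm4 (0.15 ± 0.07, adjusted p = 0.306) were above 0, and that of Lsm6 (-0.01 ± 0.03) lay 0.07 above the median set. The lowest p of the 44 was that of the nonsense-mediated decay factor Upf2 (-1.03 ± 0.30 per h, edgeR adjusted p = 0.13). Lsm7 kept 4.66%, 0.853% and 3.23% after 9 h of chase at D6, from 5.23%, 5.83% and 4.59% at the start, with a single library overlapping. Ddx6 had 4.80%, 5.53% and 3.77% at the start and 0.195%, 0.733% and 0.591% at 9 h, and its libraries at 6 h gave 0 and 2.47%. Cnot6l fell from 6.03%, 4.57% and 3.05% to 0.16%, 0.338% and 0.25%. The difference in slope between the states, D6 minus D0, was fitted on the conversion rate itself, not relative to the sum. It passed for none of the 44 genes (2 at an unadjusted p of 0.05, Lsm6 and Edc4, against 6.58% of all sets), and for 1 of all 9834 sets (0.0102%). For Lsm6 it was -0.17 ± 0.06 per h (edgeR adjusted p = 0.549), against a median of -0.10 over all sets. With the hours of the sample labels Lsm6 was called, as were 91 of all sets.

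As a description, LSm mRNAs together kept 37.3% of the rate at 15 h after 9 h of chase at D0 and 22.2% at D6. Exosome mRNAs kept 27.4% and 12.1%, the 4 CCR4-NOT deadenylases 17.2% and 11.5%, NMD mRNAs 10.2% and 14.3%, all 49 genes 24.7% and 16.3%, and all sets 29.2% and 19.1%. These shares sum conversions over genes, so that abundant genes weigh most. By gene the order differed, and the median exosome gene kept 27.1% at D0 and 13.01% at D6, above the median set. For single genes, Lsm4 and Lsm7 kept the most label of the LSm genes in both states, 67.2% and 68.5% at D0 and 38.1% and 55.9% at D6. Of the 41 genes with a rate in both states, 28 kept less at D6 (68.3%), against 62.4% of 8888 sets. The median share kept was 17.1% at D0 and 11.8% at D6, against 17.3% and 11.7% over all sets. All these shares include the background of conversions, 0.144% to 0.2075% at D0 and 0.136% to 0.190% at D6 without 4sU. It weighs more on the lower rates at D0, and its part in the difference between the states was not tested.

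Uptake of label was tested as the rate after 9 h of 4sU relative to that after 15 h. The libraries at 9 h were all from the anabolic and those at 15 h all from the catabolic assay. The time of labeling and the assay thus cannot be told apart. No gene was called at D0 (4 at an unadjusted p of 0.05, against 7.04% of all sets), at D6 (4, against 4.68%) or in the difference between the states (6, against 7.65%), where edgeR called 0.0% of all sets each time. All 49 genes together reached 84.8% of their rate at 15 h at D0 and 71.5% at D6, against 87.5% and 77.8% for all sets. LSm mRNAs reached 76.1% and 57.5%.

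Half-lives were estimated by fitting an exponential to the conversion rates, and kept where R squared was over 0.6. They are given with the SE of the fit and were not tested. For decay, 10 of the 44 genes were kept at D0 and 10 at D6 (22.7% each), against 14.9% and 16.9% of all 9834 sets. The median half-life of these genes was 367 min before and 255 min after differentiation, and that of all sets kept was 281 and 218 min. Only 4 genes were kept in both states. Cnot6 had 350 ± 76.8 min at D0 and 325 ± 93.2 min at D6. Ddx6 had 321 ± 62.9 and 265 ± 72.5 min. Lsm3 had 436 ± 92.9 and 244 ± 58.3 min, and Exosc7 had 390 ± 108 and 241 ± 83.9 min. All 4 values were lower at D6, and the difference was smaller than the sum of the errors for Cnot6, Ddx6 and Exosc7.

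The other decay half-lives kept at D0 ran from 92.6 ± 32.4 min for Tob2 to 405 ± 104 min for Upf1, with Cnot1 at 321 ± 76.5, Smg6 at 310 ± 47.1, Exosc1 at 385 ± 71.1 and Lsm2 at 387 ± 94.9 min. At D6 they ran from 108 ± 48.7 min for Cnot11 to 372 ± 88.8 min for Lsm6, with Lsm1 at 129 ± 47.2, Cnot4 at 157 ± 45.3, Cnot2 at 290 ± 75.7 and Cnot7 at 318 ± 82.4 min. For synthesis, 14 genes were kept at D0 (31.8%, against 21.4% of all sets) and 4 at D6 (9.09%, against 9.51%). Those kept in both states were Cnot6 (399 ± 69.5 and 302 ± 61.8 min), Cnot6l (219 ± 67.0 and 266 ± 77.6 min) and Ddx6 (474 ± 75.9 and 448 ± 89.7 min). At D0, Cnot6l had the shortest synthesis half-life of the genes kept and Lsm7 the longest (1057 ± 202 min).

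Other genes of mRNA decay were looked at beside these, from a list of 46 of which 45 were found. Without 4sU, 3 of the 44 tested changed by edgeR (12.3% of all sets did). Tnrc6c (2.06 ± 0.31) and Tnrc6b (1.34 ± 0.28), which link microRNA-bound Argonaute to the deadenylases, rose, and the exosome subunit Exosc6 fell by 1.26 (SE 0.31). Over all libraries 11 rose and 18 fell of 45, against 15.7% and 28.6% of all sets. The largest fitted changes were those of Nanos1 (4.51 ± 0.73) and Tnrc6c (2.25 ± 0.13) upward, and of Skic3 (-3.49 ± 1.18) and the cytoplasmic poly(A)-binding protein Pabpc4 (-2.22 ± 0.50) downward. Without 4sU, Nanos1 (3.53 ± 1.97), Skic3 (-2.91 ± 2.65) and Pabpc4 (-1.49 ± 1.52) were not called.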

How the data were processed

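RNA from P19 cells was sequenced as single-end 3′ libraries without molecular identifiers. Mapping to mm10, masking of polymorphisms and counting were done by the authors with SLAMdunk 0.3.3. The intervals carry RefSeq names, while the methods name GENCODE. Per library, the deposited counts give, for 39419 intervals, T>C conversions, covered T positions and reads. The deposited conversion rate (a fraction) and the deposited CPM were not used, and both were recomputed from the counts. Sums over the intervals of a transcript were analysed with Python 3.11.15, numpy 2.4.6, pandas 2.3.3 and R 4.3.3.

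Reads and conversions were tested over all sets with edgeR 4.0.16 (quasi-likelihood, TMM, filterByExpr for reads, a mean of 1000 covered T positions for conversions, Benjamini-Hochberg at 0.05). Alternatives used DESeq2 1.42.0 and limma 3.58.1. For conversions, the offset was covered T positions times the library's rate within a state and covered T positions alone between the states, and the hours were those of the methods (0, 3, 6, 9). The rate after 15 h was taken as the maximum in half-lives, for which the methods also give 13 h. Paralogue ratios added 0.5 reads. Half-lives over 0 and up to 5000 min were kept. Scripts were tested on simulated data.

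The genes, lists, markers and tests were chosen with earlier results of these data known. Values in every library are given for genes called without 4sU or in a label test, and ranges or values for the genes with catalytic or helicase activity. The fits over all libraries within an assay, without shallow libraries, with other size factors or coverage, or without a time point were added after the data were seen.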

Additional observations from a re-analysis of the deposited data

How the results depend on the processing

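Without 4sU, the genes called went from 0 to 1 with DESeq2, to 1 with no filter on low counts (Cnot6l each time) and to 27 over all 47 libraries, and to between 0 and 1 when each library was left out. After 15 h of 4sU they were 3 to 4 when each library was left out. Over all libraries they fell from 27 to 16 in the anabolic libraries alone, where Parn was reversed (0.28). For label loss at D0, 5 calls became 0 with limma, 9 with the hours of the sample labels, 2 with the first and last time points only and 2 to 5 when each library was left out, and Tob2 was reversed with limma (0.0412). For label loss between the states, the sample labels' hours gave 1 call (Lsm6), and for uptake between the states leaving out a library gave 0 to 1 (Lsm2). For paralogue pairs, the 2 calls became 0 without 4sU and 2 to 4 when each library was left out, with 4 without D6 replicate 45. Decay half-lives kept at D0 were 21 at 0 and 9 h only and 37 with no minimum of R squared. At D6 these were 27 and 43, and 6 to 14 when each library was left out. Synthesis half-lives kept at D0 were 26 with the labels' hours, 24 at 0 and 9 h only and 41 with no minimum. At D6 these were 8, 10 and 44, and 3 to 8 when each library was left out. Genes with a decay half-life in both states went from 4 to 7, 17 and 36, and 2 to 5. Over all sets, calls without 4sU went from 1357 to 2119 with DESeq2 and to 793 to 1456 when each library was left out, those after 15 h of 4sU from 1504 to 866 to 1431, and those of label loss at D0 from 733 to 23 with limma, 1702 with the labels' hours, 433 with the first and last time points and 440 to 760 when each library was left out. At D6 label loss went from 66 to 9 with limma, 159 with the labels' hours and 44 to 145 when each library was left out. Between the states it went from 1 to 91 and 28 with the labels' hours and with the first and last time points, and to 4 with limma. Uptake calls went from 0 to 15, 29 and 65 with limma at D0, at D6 and between the states, and the last to 49 at most when a library was left out. The comparison of libraries with and without 4sU at D6 went from 1 call to 177 with DESeq2 and 40 with no filter on low counts. The cause was not tested. No paired analysis was possible because the labels give the groups no shared replicate numbers. Few reads limit Tob1, Dcp1a, Dcp1b, Cnot3, Lsm5, Dis3l and Upf3a most.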
